A study of Mus musculus with 6 samples.

Results

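The miR-26 and miR-101 families were examined in the lungs of bleomycin (BLM) treated mice. The members were the 4 probes whose reporter name was mmu-miR-26a-5p, mmu-miR-26b-5p, mmu-miR-101a-3p or mmu-miR-101b-3p. They were 4 of the 1963 mouse miRNA probes on the array, and all 4 were detected on all 6 arrays and were therefore among the 275 probes that were tested. Lung RNA from 6 littermate C57Bl6 mice was hybridized to 6 one-dye arrays, 1 mouse per array. The WT group held 3 mice that received saline. The WT-BLM group held 3 mice that received BLM, an antitumour drug whose lung injury leads to scarring, at 1.5 U/kg into the trachea. Both groups were wild type, entered at an age of 8 to 10 weeks, and their lungs were taken at day 21. The RNA came from whole lung tissue, so that fewer cells of a type and less RNA per cell cannot be told apart. Mice that carry the IκBα mutant transgene (IKBM) were not analysed here.

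MicroRNAs are short RNAs that guide a silencing complex to messenger RNAs, and the bases near the 5′ end, called the seed, set most of the pairing. The miR-26 genes lie in introns of the Ctdsp genes, which code for small phosphatases, and miR-26 is known to restrain cell growth and to pair with messenger RNAs of the TGF-β pathway, a main driver of scar formation. MiR-101 is best known for silencing Ezh2, the enzyme that writes a repressive histone mark, and both families have been described as limiting fibrosis in several organs.

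The mature sequences are shown because they set which members can share targets and which probes could hybridize to the same RNA. They are as printed in the array files, 5′ to 3′, with the seed (bases 2 to 8) in capitals, and each was identical to its RefSeq entry.

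mmu-miR-26a-5p: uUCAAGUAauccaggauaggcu

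mmu-miR-26b-5p: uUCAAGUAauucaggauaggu

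mmu-miR-101a-3p: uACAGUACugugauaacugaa

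mmu-miR-101b-3p: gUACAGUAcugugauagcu

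mmu-miR-101c: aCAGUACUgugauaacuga

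mmu-miR-144-3p: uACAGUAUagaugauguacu

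MiR-26a-5p (22 bases) and miR-26b-5p (21 bases) had the seed UCAAGUA in common, and no other probe on the array carried it. Counted from the 5′ end of miR-26a-5p, they differed by C11U and C21U over 21 positions, so that their probes were nearly alike. MiR-101b-3p (19 bases) started 1 base earlier than miR-101a-3p, and the seed was therefore read 1 base earlier, as UACAGUA and not ACAGUAC. Over the 18 positions that aligned, only A16G separated miR-101b-3p from miR-101a-3p. All 19 bases of miR-101c, which is not a member, were contained in miR-101a-3p with 0 differences. MiR-144-3p, an erythroid miRNA, had its first 7 bases in common with miR-101a-3p and differed at 12 of 20 positions. Hybridization of one RNA to the probe of its near-identical relative was not tested.

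In the RefSeq table of the mouse assembly GRCm38.p6, miR-26a-5p had 2 genes. Mir26a-1 placed it at chr9:119031811-119031832 on the plus strand, within the span of Ctdspl, and Mir26a-2 at chr10:126995543-126995564 on the plus strand, within Ctdsp2. Both hairpins are shown because they release the same 5p arm, so that one probe measured the product of both genes. The arms are in capitals.

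Mir26a-1: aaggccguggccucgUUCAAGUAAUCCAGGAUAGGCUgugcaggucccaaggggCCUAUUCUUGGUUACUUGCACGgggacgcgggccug

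Mir26a-2: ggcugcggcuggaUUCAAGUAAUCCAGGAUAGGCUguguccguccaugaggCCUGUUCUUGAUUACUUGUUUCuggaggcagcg

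MiR-26b-5p lay at chr1:74394324-74394344 on the plus strand within Ctdsp1. MiR-101a-3p lay at chr4:101346957-101346977 on the minus strand, within the span of E130102H24Rik, and miR-101b-3p at chr19:29135338-29135356 on the plus strand within Rcl1. The table of genes gives spans only, so that exons and introns were not told apart here.

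The arrays differed in quality. The median of the 800 empty spots was between 49.5 and 155, and the number of detected probes between 132 and 365. Detection required a mean intensity over the median of the empty spots plus 3 SD of those spots. This SD was 59.3 for WT mouse 3, 45.2 for WT-BLM mouse 1 and 8.01 to 18.1 for the remaining mice. WT mouse 3 also had the lowest signal, and its median over the tested probes was 129 above empty spots, while the remaining mice had 224 to 282. Log2 fold changes of each member without each of these mice are given with its results below.

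On quantile-normalized values, no member differed between WT-BLM and WT in limma's test after Benjamini-Hochberg adjustment over the 275 probes. No member had groups without overlap on these values. Among all 275 probes, 0% passed an adjusted p of 0.05, 1.82% (5 probes) had an unadjusted p under 0.05, and 4.73% (13 probes) had groups without overlap in either direction. For the members these counts were 0, 0 and 0 of 4. Of the 4 members, 3 had a lower mean in WT-BLM and miR-26a-5p had equal means. Over all 275 probes the median log2 fold change (WT-BLM over WT) was 0.04, with quartiles of -0.12 and 0.23, and 155 probes were higher and 119 lower in WT-BLM. The median standard error was 0.29 on the log2 scale, and 3 mice per group limit the precision of every value.

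**Figure D1:**
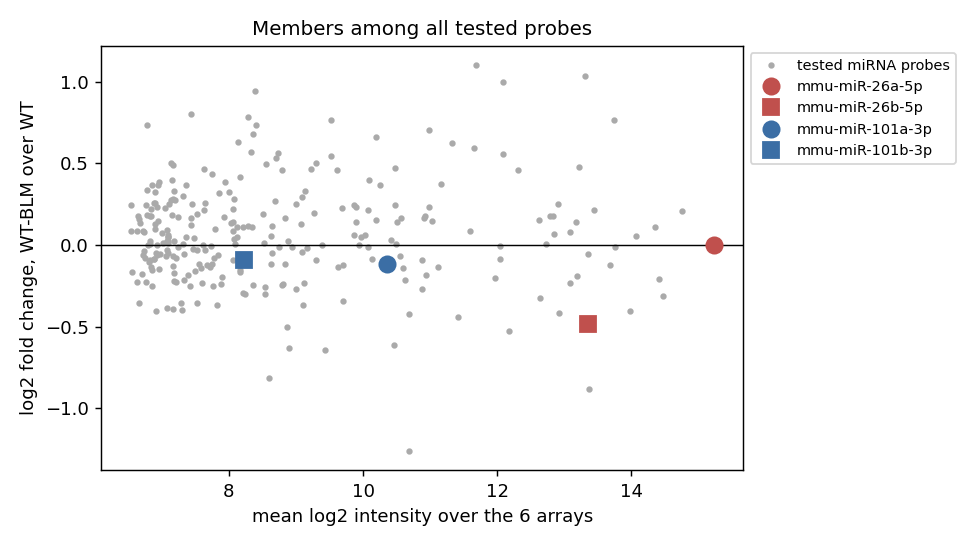
Each point is a tested miRNA probe, with its mean log2 intensity over the 6 arrays on the x axis and its log2 fold change (WT-BLM over WT) on the y axis. The members (large symbols) lie between 0 and -0.48, inside the cloud of the 275 probes, and miR-26a-5p lies at the right edge.

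The signal of miR-26a-5p was among the brightest of the array in every mouse. Before any scaling, its signal above the empty spots was 46401, 40453 and 25575 in WT mice 1 to 3. In WT-BLM mice 1 to 3 it was 34842, 47066 and 40424. The lowest value belonged to WT mouse 3, whose array was dim as a whole, and the other 2 WT mice lay within the range of the WT-BLM mice. The 2 spots of the probe differed by at most 0.09 on the log2 scale on any array, so that the spread between mice was not a spread between spots. No spot was at one common ceiling, as the brightest spot of an array had a different intensity on each one, from 26364 to 51538.

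Quantile normalization gives the same set of values to every array, so that a probe at the top of the ranking takes a fixed value. MiR-26a-5p was the brightest probe on 4 arrays and came after mmu-miR-6239 on those of WT mouse 2 and WT-BLM mouse 1. Its normalized log2 intensity was therefore 15.36, 15.01 and 15.36 in WT mice 1 to 3 and 15.01, 15.36 and 15.36 in WT-BLM mice 1 to 3. These are only 2 distinct values, set by rank, and the difference of 0 between the groups (standard error 0.23, 95% interval -0.53 to 0.53) tells little about the level. The change of miR-26a-5p was for this reason also read from scalings that do not pin the top probe.

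When each array was scaled to its 75th percentile, miR-26a-5p was 15.45, 15.00 and 15.23 in WT and 15.17, 15.11 and 15.41 in WT-BLM. The WT-BLM mice lay inside the range of the WT mice. The means were 15.23 ± 0.22 and 15.23 ± 0.16 (SD, n = 3), a fold change of 1.00 with a 95% interval of 0.651 to 1.54 (limma adjusted p = 0.998, exact two-sided permutation p = 1). Without normalization the log2 difference was 0.15 (95% interval -0.56 to 0.87, exact permutation p = 0.7) and with cyclic loess -0.04 (-0.54 to 0.46, exact permutation p = 0.8). In the authors' own normalized table the linear intensities were 50588, 29896 and 36467 in WT and 40928, 31602 and 34899 in WT-BLM, again with overlap, and their means had a ratio of 0.919 (exact permutation p = 0.8). With the 75th percentile the log2 fold change was 0.01 without WT mouse 3, 0.03 without WT-BLM mouse 1, and between -0.11 and 0.11 when each mouse was left out in turn. Without normalization it turned from 0.15 to -0.10 when the dim array of WT mouse 3 was left out. The sign of the small difference varied with the scaling, and the intervals of the 4 scalings together spanned fold changes from 0.651 to 1.83.

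MiR-26b-5p, which has the same seed, had the largest difference among the members. Its normalized log2 intensity was 13.65, 13.26 and 13.88 in WT mice 1 to 3 and 13.34, 13.23 and 12.77 in WT-BLM mice 1 to 3. WT-BLM mouse 3 was the lowest of the 6, WT mouse 3 the highest, and the groups overlapped because WT mouse 2 lay below WT-BLM mouse 1. The means were 13.60 ± 0.31 and 13.11 ± 0.30 (SD, n = 3), a log2 fold change of -0.48 with a standard error of 0.27 and a 95% interval of -1.11 to 0.14. This is a fold of 0.716 (0.464 to 1.10), with a limma adjusted p of 1, an unadjusted limma p of 0.112 and an exact permutation p of 0.2. With 3 mice per group the smallest p of this exact two-sided test is 0.10.

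The lower mean of miR-26b-5p rested in part on 1 array. On that of WT-BLM mouse 3 the 2 spots of the probe stood at 10902 and 4810 above the empty spots, a ratio of 2.27. The spread of brightness within these spots was 14.2% and 15.9%, against 2.97% to 7.90% in all other spots of the probe. On the remaining arrays the 2 spots differed by at most 1.29-fold. When the brighter spot of each pair was used, the log2 fold change was -0.30, and without WT-BLM mouse 3 it was -0.31. Without the dim array of WT mouse 3 it was -0.34, and without WT-BLM mouse 1 it was -0.60.

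**Figure D2:**
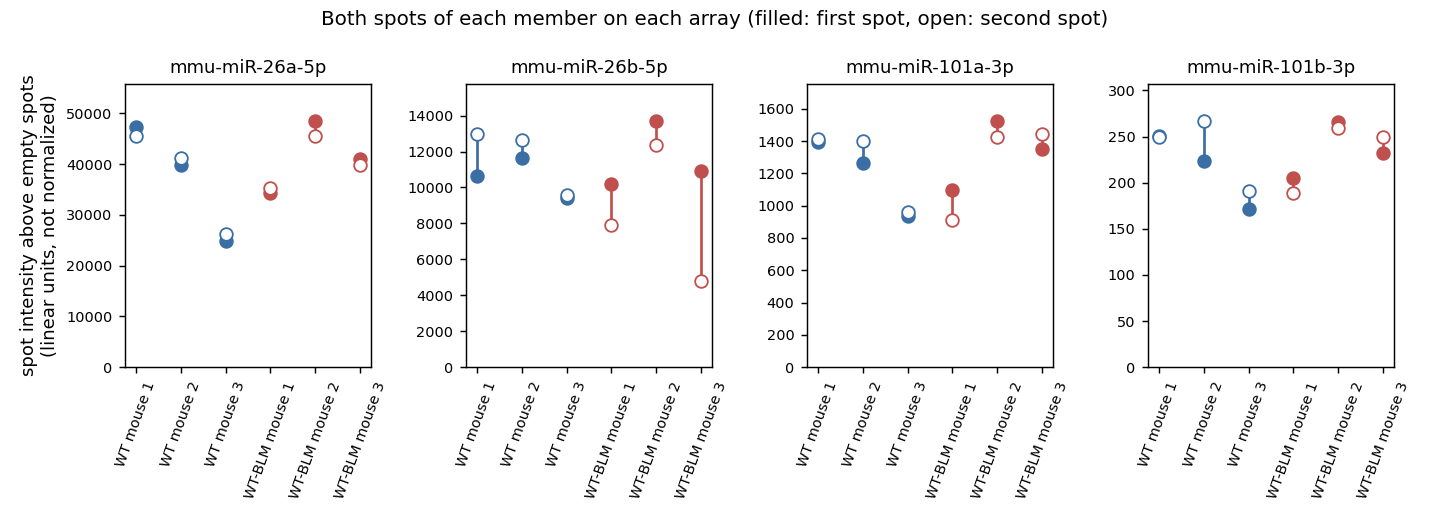
Both spots of each member on each array, with linear intensity above the empty spots on the y axis (not normalized) and the 6 mice on the x axis. The spots of a pair lie close together in most cases, whereas those of miR-26b-5p in WT-BLM mouse 3 are separated 2.27-fold.

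The direction of miR-26b-5p was the same under the 4 scalings and in the authors' values, while its size was not. The log2 fold change was -0.38 with the 75th percentile, -0.39 with cyclic loess and -0.23 without normalization (exact permutation p = 0.1, 0.3 and 0.6). With the 75th percentile the groups did not overlap, although WT mouse 2 and WT-BLM mouse 2 were both at 13.27 after rounding. The share of all 275 probes without overlap was computed for the quantile values only. The authors' linear intensities were 11772, 9024 and 13700 in WT and 9890, 8855 and 7189 in WT-BLM, with means of 11499 ± 2350 and 8645 ± 1363 (SD, n = 3) and a ratio of 0.752 (exact permutation p = 0.2). WT mouse 2 was again below WT-BLM mouse 1.

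MiR-101a-3p differed little between the groups. Its normalized log2 intensity was 10.55, 10.13 and 10.58 in WT and 10.18, 10.17 and 10.55 in WT-BLM. WT mouse 2 was the lowest of all mice and WT-BLM mouse 3 lay beside the higher WT mice. The means were 10.42 ± 0.25 and 10.30 ± 0.22 (SD, n = 3), a log2 fold change of -0.12 with a standard error of 0.24, or a fold of 0.921 (95% interval 0.624 to 1.36; limma adjusted p = 1, exact permutation p = 0.9). The direction depended on the scaling, since the log2 fold change was 0.05 without normalization. It was -0.04 without WT mouse 3, -0.06 without WT-BLM mouse 1, and between -0.27 and -0.04 when each mouse was left out in turn. In the authors' table the values were 1373, 985 and 1281 in WT and 1020, 1080 and 1349 in WT-BLM, a ratio of 0.948.

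MiR-101b-3p was the dimmest member. Its normalized log2 intensity was 8.26, 8.11 and 8.42 in WT and 8.01, 8.12 and 8.39 in WT-BLM. WT-BLM mouse 1 was the lowest, and the other WT-BLM mice lay within the WT range. The means were 8.27 ± 0.16 and 8.17 ± 0.20 (SD, n = 3), a log2 fold change of -0.10 with a standard error of 0.22, or a fold of 0.936 (95% interval 0.654 to 1.34; limma adjusted p = 1, exact permutation p = 0.6). The authors' values of 199, 174 and 242 in WT and 178, 168 and 219 in WT-BLM gave a ratio of 0.919. The log2 fold change was -0.02 without WT mouse 3, -0.01 without WT-BLM mouse 1, and between -0.21 and -0.01 when each mouse was left out in turn. Its signal was only 1.02 times the detection limit in WT mouse 3 and 1.45 times in WT-BLM mouse 1, but at least 4.51 times in the others. For miR-101a-3p the same ratio was 5.33 to 58.1, so that the limit of detection bore on miR-101b-3p alone among the members.

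**Figure D3:**
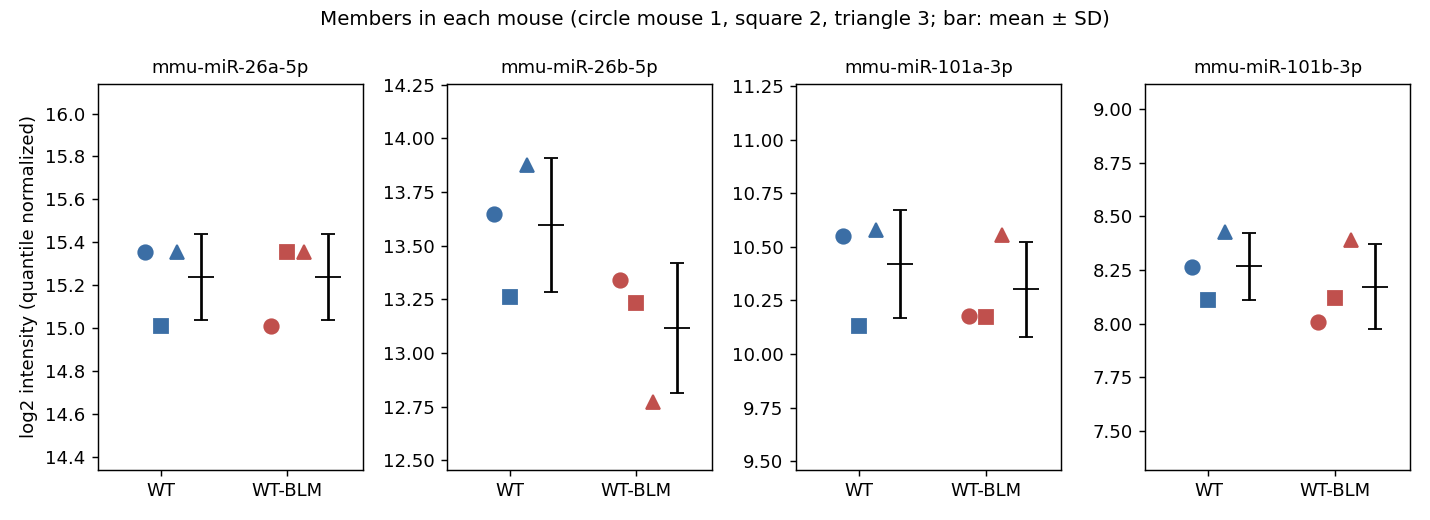
Normalized log2 intensity (y axis) of each member in each mouse of the WT and WT-BLM groups, with bars for the mean ± SD (n = 3), where each panel spans the same range of log2 units. The groups overlap in all 4 panels, and miR-26a-5p takes only the values 15.01 and 15.36.

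**Figure D4:**
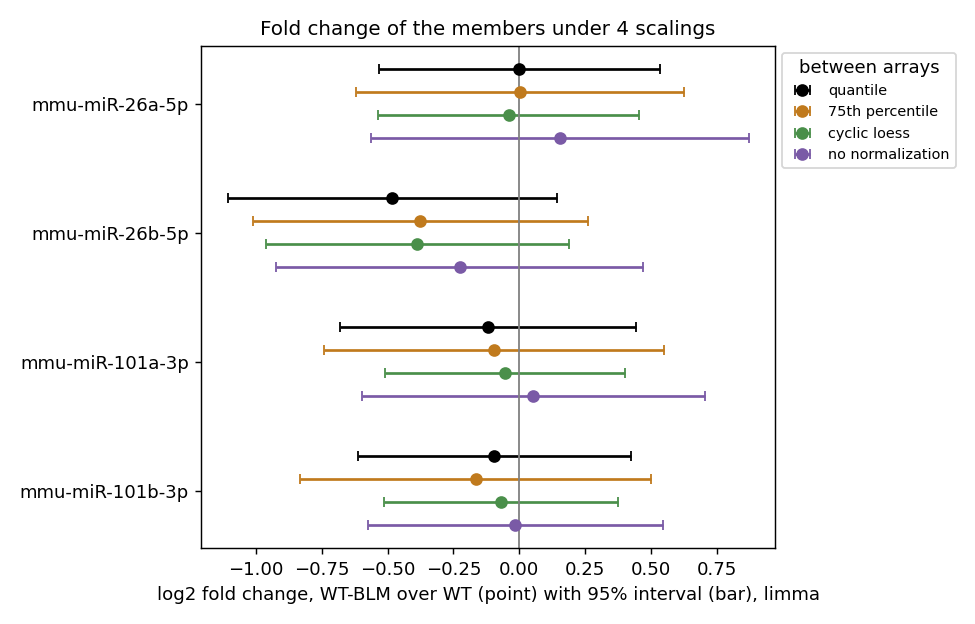
Log2 fold change (WT-BLM over WT, x axis) of each member with its 95% interval from limma, under quantile, 75th percentile and cyclic loess scaling and without normalization. Every interval includes 0, and miR-26b-5p is below 0 in all 4.

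The members of a family were then compared within each array, where a scaling factor of the array cancels. Such a difference is between 2 probes and only its change between groups can be read. Without normalization, log2 of miR-26a-5p minus that of miR-26b-5p was 1.98, 1.73 and 1.42 in WT mice 1 to 3 and 1.95, 1.85 and 2.47 in WT-BLM mice 1 to 3. WT mouse 3 and WT-BLM mouse 3 were the extremes, and the others of both groups lay together. The group difference was 0.38 (exact permutation p = 0.3), and 0.30 in the authors' values (p = 0.3, exact permutation test). On the values without normalization it was 0.19 without WT-BLM mouse 3, where the spots of miR-26b-5p disagreed, 0.24 without WT mouse 3, 0.45 without WT-BLM mouse 1, and at most 0.51 without any other mouse. After quantile normalization, where miR-26a-5p is set by rank, the difference of 0.48 is that of miR-26b-5p alone with its sign turned.

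The difference within the miR-101 family was nearly the same in the groups. Without normalization, miR-101a-3p minus miR-101b-3p was 2.23, 2.20 and 1.92 in WT and 2.04, 2.23 and 2.29 in WT-BLM. The groups overlapped, and their means differed by 0.07 (exact permutation p = 0.6), or by -0.02 after quantile normalization (exact permutation p = 1). This difference had no settled direction.

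**Figure D5:**
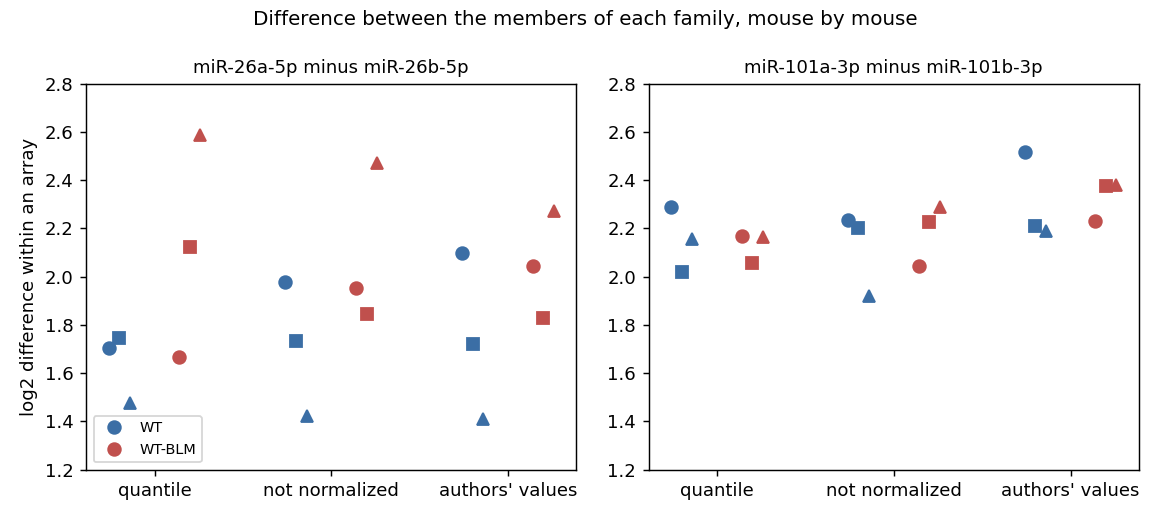
Log2 difference within an array (y axis) between the members of each family for quantile-normalized, not normalized and authors' values (x axis), with a circle, square and triangle for mice 1, 2 and 3. The groups overlap throughout, and WT-BLM mouse 3 has the highest difference of miR-26a-5p and miR-26b-5p, at 2.59, 2.47 and 2.27.

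Across the 6 arrays the normalized levels of miR-101a-3p and miR-101b-3p had a Pearson correlation of 0.91, whereas those of miR-26a-5p and miR-26b-5p had 0.11. Both miR-101 members also varied with miR-26a-5p, with correlations of 0.73 and 0.74, and less with miR-26b-5p, with 0.25 and 0.14. These values describe 6 arrays that mix both groups and have their signal and normalization in common, and those of miR-26a-5p rest on 2 distinct values. Among the other 115 probes detected on all arrays, the closest to miR-101a-3p were miR-200b-3p (0.92), miR-101b-3p (0.91) and miR-872-5p (0.91), and to miR-101b-3p they were miR-200b-3p (0.95), miR-872-5p (0.94) and miR-34c-3p (0.92). For miR-26b-5p the closest were miR-335-5p (0.87), miR-5099 (0.78) and miR-199b-5p (0.74). For miR-26a-5p they were miR-103-3p (0.92), miR-872-5p (0.91) and miR-214-3p (0.90).

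The third miR-101 of the array and the opposite arms of the hairpins were examined next. MiR-101c, whose sequence lies within that of miR-101a-3p, was detected on all 6 arrays, at 9.95, 9.74 and 9.93 in WT and 9.16, 9.38 and 10.04 in WT-BLM. WT-BLM mice 1 and 2 were below all WT mice and WT-BLM mouse 3 was above them. The log2 fold change was -0.34 with a standard error of 0.28 (limma adjusted p = 1, exact permutation p = 0.4). On the array of WT-BLM mouse 1 its 2 spots were at 758 and 322 above the empty spots, and without this mouse the log2 fold change was -0.16. Without WT-BLM mouse 3 it was -0.60.

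The opposite arms, which are mostly degraded when the hairpin is cut, were detected on fewer arrays than the members. MiR-101b-5p was detected on 4 arrays, at 94.3 to 142 above the empty spots, and had a log2 fold change of 0.25 with a standard error of 0.39 (limma adjusted p = 1). In WT mouse 3 its signal was below the empty spots, and without this mouse the log2 fold change was -0.16. MiR-26a-2-3p was detected on 2 WT-BLM arrays, and miR-26a-1-3p and miR-26b-3p on 1 WT-BLM array each, so that these were not tested. MiR-101a-5p was detected on 0 arrays. MiR-144-3p, which resembles miR-101a-3p at the 5′ end, was detected on 5 arrays and had a log2 fold change of 0.03 with a standard error of 0.45. The array on which it was not detected was that of WT mouse 3, and without this mouse the log2 fold change was -0.49.

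Other miRNAs described in fibrosis were set beside the members. The 10 listed as limiting fibrosis were the 3p arms of miR-29a to c and miR-200a to c, let-7d-5p, miR-30a-5p and both miR-486. MiR-141-3p (log2 fold change 0.54) and miR-429-3p (0.06), taken as epithelial markers below, were not on this list. Of the 10 listed, 9 were found on the array by name and all 9 were tested. None passed the adjusted test, 5 were higher and 4 lower in WT-BLM, none had groups without overlap, and the median log2 fold change was 0.11 against 0.04 for all 275 probes. Their values ran from -0.19 for miR-200b-3p to 0.71 for miR-29c-3p, a miRNA that silences collagen messages, which missed the unadjusted threshold as well. The level of miR-29c-3p was 9.82, 10.97 and 11.10 in WT and 11.48, 10.99 and 11.54 in WT-BLM, lowest in WT mouse 1. In the authors' table WT mouse 1 was instead the highest WT mouse (2447, 2142 and 1995 in WT, 2317, 1797 and 2930 in WT-BLM), and the ratio of the means was only 1.07 (exact permutation p = 0.8). On log2 of the authors' values plus 50, the median of the 9 miRNAs was 0.02 and that of all 275 probes 0.04, and the 9 ran from -0.33 for miR-200b-3p to 0.24 for let-7d-5p. MiR-26b-5p, at -0.48 after quantile normalization and -0.40 on the authors' scale, was lower than all 9 on both. Its standard errors were 0.27 and 0.24, and this order was not tested.

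Of the 6 miRNAs listed as promoting fibrosis (miR-21a-5p, miR-155-5p, miR-199a-5p, miR-34a-5p, miR-145a-5p and miR-214-3p), 4 were higher and 2 lower, with a median of 0.14, or 0.10 on the authors' scale. None passed the adjusted test, and 2 of the 6 had groups without overlap, against 4.73% of all 275 probes. The list was chosen with earlier results of these data known, so that this share cannot be weighed against that of all probes. MiR-34a-5p, which slows cell division downstream of p53, was 8.24, 7.97 and 7.92 in WT and 8.85, 8.39 and 8.60 in WT-BLM. All WT-BLM mice were above all WT mice, with a log2 fold change of 0.57 (standard error 0.23, unadjusted limma p = 0.040, adjusted p = 1, exact permutation p = 0.1). MiR-199a-5p also had groups without overlap, with a log2 fold change of 0.40. MiR-21a-5p, which is raised in many scarring tissues, had 0.14 with overlapping groups and an exact permutation p of 0.7. The log2 fold change of miR-155-5p was also 0.14, and the lower 2 were miR-214-3p at -0.14 and miR-145a-5p at -0.05.

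Markers of the cell types of a lung were present on the arrays. The endothelial miR-126a-3p and miR-126a-5p and all 5 epithelial markers (miR-200a to c, miR-141-3p and miR-429-3p) were tested. So were all 3 leukocyte markers and both erythroid markers. Beside the values of the members, the summed normalized intensity of the epithelial markers was 5839 to 9324 in WT and 7462 to 8946 in WT-BLM, that of the leukocyte markers 2265 to 3288 and 2613 to 3187, and that of the erythroid markers 13011 to 20351 and 15486 to 20201. These ranges overlapped, and so did those of the endothelial markers (7120 to 16604 and 16164 to 21746) and of the smooth muscle markers miR-143-3p and miR-145a-5p (22316 to 27496 and 14284 to 22561). The log2 fold change was 0.76 for miR-126a-3p (standard error 0.34, unadjusted limma p = 0.058, adjusted p = 1, exact permutation p = 0.3) and 0.22 for miR-126a-5p, and that of miR-126a-3p was 0.47 without WT mouse 3. The low end of the smooth muscle sum was WT-BLM mouse 1, in which miR-143-3p was 11.64 against 13.55 and 13.59 in the other WT-BLM mice. In the authors' table miR-143-3p was 11946 in that mouse, between the 10614 and 12271 of the others. The log2 fold change was -0.88 for miR-143-3p but -0.05 for miR-145a-5p. In the authors' values the ratios of the means (WT-BLM over WT) were 0.838 and 0.934. No marker passed the adjusted test, and the part of cell composition in the values of the members was not tested.

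Markers of striated muscle varied between the WT mice. The muscle miRNA miR-1a-3p was 11.35, 12.96 and 9.63 in WT and 10.46, 9.84 and 9.84 in WT-BLM, highest in WT mouse 2, and miR-206-3p was detected in this mouse only. WT mouse 2 was also the WT mouse with the lowest normalized value of all 4 members. Without it the log2 fold change was -0.65 for miR-26b-5p, -0.27 for miR-101a-3p and -0.17 for miR-101b-3p, and for miR-26a-5p it was -0.11 with the 75th percentile. In limma after quantile normalization no member passed the adjusted test without this mouse. The liver marker miR-122-5p and the brain marker miR-124-3p were detected on 1 array each and miR-9-5p on 0. The part of muscle RNA in these values was not tested.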

How the data were processed

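Lung miRNA was measured in 3 WT and 3 WT-BLM mice, which were grouped by the sample labels. For every spot the authors deposited a median intensity with no background subtracted and no normalization. They also deposited 1 intensity per probe, corrected and normalized by them and rounded to whole numbers on a linear scale. The normalization method of that table is not given in the sources used here. For the 116 probes seen on every array, log2 of that table correlated with the values computed here at 0.974 to 0.996 per array (across probes, which are not independent), and its median over all miRNA probes was 3 or 4.

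The spot intensities were background corrected with normexp (offset 50, all spots) in limma 3.58.1 under R 4.3.3. Control spots were then removed, log2 values were quantile normalized and the 2 spots of each probe were averaged. The offset makes the fold changes of dim probes smaller. The lmFit and eBayes functions were run on the 275 probes found on 3 or more arrays, with Benjamini-Hochberg adjustment. Single values were compared by an exact two-sided permutation test over the 6 mice. The steps were tested on simulated data.

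The members and lists were chosen with earlier results of these data known. The miRNAs named are the members, their relatives and opposite arms, the 3 probes closest to each member by correlation, and the lists given in the text; miR-6239 was named after its values were seen. MiRNA names are those of the files. Searched by name in RefSeq sequences (GRCm38.p6), 11 of 11 matched the array's sequences, and the coordinates are RefSeq's. Among the alternatives were other scalings, the authors' values and the t-test of the study's methods, with and without pairing. Slide and scan are not recorded in the files used here, and batches could not be examined.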

Additional observations from a re-analysis of the deposited data

How the results depend on the processing

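Under 15 other settings and with each of the 6 mice left out, the number of probes with an adjusted p under 0.05 was 0, and no member had an unadjusted p under 0.05, the lowest being 0.065 for miR-26b-5p without the filter on dim probes. The number with an unadjusted p under 0.05, 5 at first, was 3 with the 75th percentile, 8 with cyclic loess, 14 with array weights, 9 with the methods' paired t-test, 46 without the filter, 1 for probes detected on all 6 arrays, and 1 to 21 with a mouse left out (21 without WT mouse 3, 12 without WT mouse 1, 3 without WT-BLM mouse 1 and 1 without WT-BLM mouse 3). The filter and the set of all-array probes change the number of probes tested, and the cause of the other changes was not tested. With the replicate number as a block the count was 8. Mice of the same number had correlations of 0.16, 0.03 and 0.07 between their deviations. Whether these mice share more than a number cannot be told from 3 such values. With this block miR-26b-5p had a limma p of 0.162 with the same log2 fold change.

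MiR-26b-5p was negative under all 15 settings, from -0.48 to -0.23, and from -0.65 to -0.31 with a mouse left out. MiR-101a-3p turned to 0.054 without normalization and to 0.0050 with array weights, and miR-101b-3p to 0.0043 with array weights, which gave WT mouse 3 a weight of 0.237 and the others 1.06 to 1.70. MiR-26a-5p, at 0 after quantile normalization, was between -0.10 and 0.15 under the others. The within-family difference of miR-26a-5p and miR-26b-5p was 0.25 to 0.48, and 0.25 to 0.71 with a mouse left out of the quantile values, in which miR-26a-5p is set by rank. In alternatives chosen after seeing the data, each mouse was left out on values that do not set miR-26a-5p by rank, which gave 0.19 to 0.51 for this difference without normalization. That of miR-101a-3p and miR-101b-3p turned from -0.024 to 0.068 without normalization and with the 75th percentile, to 0.071 with the brighter spot, to 0.014 with cyclic loess, and to 0.024 and 0.044 with the authors' values (pseudocounts of 50 and 1), and was -0.092 to 0.043 with a mouse left out. The 75th percentile moved the median of all 275 probes from 0.04 to -0.09. Relative to these medians, miR-26b-5p stayed lower. Dim signal limits miR-101b-3p and the opposite arms, and the number of mice limits every interval.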
